A study of Mus musculus with 12 samples.

Results

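Igf1, Syt14, Adgrf3, L3mbtl1 and Zfp811 are 5 mouse genes that averaged under 1 CPM, a gene's counts scaled by the total of its library, in the mock libraries and were higher in the libraries titled HSV and G3-YSD. They are 5 of 54532 genes listed in the count files and of 16840 genes that passed the filter on low counts, and all 5 passed it. The genes were selected on exactly this difference, so their levels in HSV, G3-YSD and mock are described below and were not tested. The set was picked as genes with no expressed gene close by, and that description did not hold for all of them: an expressed gene of either strand lay within 10 kb of 3 of the 5 genes, Adgrf3, L3mbtl1 and Zfp811.

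The study sequenced polyA-selected RNA of mouse L929 cells, an established fibroblast line, 6 h after transfection, in pairs of 150-base reads. It holds 12 libraries in 6 groups of 2: HSV, G3-YSD, HT-DNA, cGAMP, hpRNA and mock, each titled with a number 1 or 2. The names are given as the labels write them. The treatment label of mock reads as untreated. All 12 cell line labels name L929, while the source name of mock, HT-DNA and hpRNA gives only a mouse fibroblast line. Transfections were made in duplicate, and nothing says how the 2 libraries of a group were grown or prepared. The p-values therefore measure only the spread between these libraries, which may be technical. The digits after HSV could also name virus types, which the labels do not settle; HSV would then be 2 groups of 1 library each.

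Library totals ran between 12650790 and 18912400 counts. By correlation of log2 CPM over genes, every library was nearest to the library of another label with the same number, HSV to G3-YSD, HT-DNA to cGAMP and mock to hpRNA, with r of 0.995 to 0.997. The 2 libraries of one label correlated at 0.986 to 0.992 in mock, HT-DNA, cGAMP and hpRNA but only at 0.900 in HSV and 0.901 in G3-YSD. Ifit1, an antiviral gene induced by interferon, stood at 1696 CPM in HSV 1 and 1805 CPM in G3-YSD 1, and at 54.9 CPM in HSV 2 and 65.7 CPM in G3-YSD 2. Mock itself was split, with 2.10 CPM in mock 1 and 486 CPM in mock 2. So was hpRNA, with 2.28 CPM in hpRNA 1 and 441 CPM in hpRNA 2. Libraries 1 and 2 had 153 and 661 CPM in HT-DNA and 178 and 672 CPM in cGAMP. The library labelled mock 2 thus goes against a label of untreated cells, and whether the deposited labels are right cannot be told from these files. Every fold change over mock or hpRNA below rests on the labels as given. Mitochondrial genes took 3.53% of counts in HSV 2 and 3.64% in G3-YSD 2, against 2.03% to 2.52% in the other 10 libraries. Of 12 fibroblast markers, 10 were counted in every library, with a summed level of 2896 to 5009 CPM in the HSV and G3-YSD libraries and 3470 to 3778 CPM in the other 8. Vim, at 1822 to 2758 CPM in HSV and G3-YSD and 2104 to 2397 CPM in the other 8, sets most of that sum. Thy1, among the markers counted, had at most 0.488 CPM in any library. Lum and Dcn, also fibroblast markers, had at most 3 counts in every library.

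The 5 genes share no pathway. Igf1 encodes insulin-like growth factor, a secreted hormone made chiefly by liver under growth hormone and locally by mesenchymal cells, which acts through the receptor Igf1r. Syt14 encodes an atypical synaptotagmin, a member of a family of membrane trafficking proteins best known from synaptic vesicles. Adgrf3 encodes an adhesion G protein-coupled receptor, a family with long extracellular domains that are cleaved near the membrane. L3mbtl1 encodes a chromatin reader whose MBT repeats bind methylated histone lysines and compact nucleosomes. Zfp811 encodes a zinc-finger protein. Many mouse zinc-finger proteins carry a KRAB domain and silence repeats and genes through the corepressor Trim28.

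Promoter windows are shown for 3 of the 5 genes, from RefSeq on GRCm38.p6, because the genes have in common only their pattern over libraries. Each window runs from 250 bases before to 50 bases after the annotated start and is written 5′ to 3′ on the gene's strand. Capitals mark the motif that a letter search found. The windows lie at chr10:87860861-87861160 (plus strand) for Igf1, chr1:193035726-193036025 (minus strand) for Syt14 and chr17:32809882-32810181 (minus strand) for Zfp811.
Igf1: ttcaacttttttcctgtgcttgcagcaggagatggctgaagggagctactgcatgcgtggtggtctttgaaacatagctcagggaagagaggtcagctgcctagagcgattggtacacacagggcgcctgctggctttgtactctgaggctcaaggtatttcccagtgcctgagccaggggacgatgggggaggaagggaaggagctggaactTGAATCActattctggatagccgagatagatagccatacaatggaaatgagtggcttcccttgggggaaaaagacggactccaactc
Syt14: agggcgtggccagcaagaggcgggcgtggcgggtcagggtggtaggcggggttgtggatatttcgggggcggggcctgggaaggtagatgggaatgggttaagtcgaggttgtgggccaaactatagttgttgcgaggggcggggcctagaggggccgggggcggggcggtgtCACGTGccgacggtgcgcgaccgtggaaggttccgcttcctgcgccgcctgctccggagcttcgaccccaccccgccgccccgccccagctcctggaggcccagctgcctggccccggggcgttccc
Zfp811: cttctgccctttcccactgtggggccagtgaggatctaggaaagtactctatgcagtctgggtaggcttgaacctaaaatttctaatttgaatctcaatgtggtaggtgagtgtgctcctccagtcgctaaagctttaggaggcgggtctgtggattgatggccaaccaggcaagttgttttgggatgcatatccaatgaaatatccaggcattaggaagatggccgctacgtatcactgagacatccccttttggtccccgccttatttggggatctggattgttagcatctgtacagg

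The windows differed in composition. G and C made up 52.3% of the Igf1 window, 71.3% of the Syt14 window and 48.3% of the Zfp811 window, against a median of 52.7% over 32851 RefSeq promoters. CG dinucleotides numbered 6, 29 and 5 in that order of genes, against a median of 7. The Syt14 window was thus CG-rich and the other windows were near or under the median. The search covered 7 motifs on both strands. The Igf1 window held the AP-1 letters TGANTCA 37 bases before the start, a motif present in 7.81% of all windows. The Syt14 window held the E-box letters CACGTG 77 bases before the start, present in 7.15% of windows, which overlap the hypoxia response core ACGTG, present in 19.6%. The Zfp811 window held none of the 7. The CRE letters TGACGTCA, in 1.79% of windows, the ISRE core GAAANNGAA, in 8.56%, the kappaB core GGGANTTTC, in 1.11%, and TATAAA, in 13.6%, were in none of these windows. No motif was shared by any pair of these windows. A match describes letters only.

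Igf1 (ENSMUSG00000020053) lies on chromosome 10 at 87858265 to 87937042 of mm10, on the plus strand, and its gene start there is upstream of the RefSeq window above. It had 137 and 251 counts in HSV 1 and HSV 2 and 138 and 262 counts in G3-YSD 1 and G3-YSD 2, against 11 and 13 counts in mock 1 and mock 2. On the TMM scale, which corrects library totals for composition, these were 8.40 and 20.7 CPM in HSV, 8.15 and 20.1 CPM in G3-YSD, and 0.625 and 0.793 CPM in mock. The other 3 groups stayed between 0.649 and 0.896 CPM. All 4 HSV and G3-YSD libraries lay above the other 8, the lowest of them 9.10-fold over the highest of the 8, and library 2 was the higher one in both groups. Igf1 averaged 14.6 ± 8.72 CPM in HSV and 14.1 ± 8.48 CPM in G3-YSD, against 0.709 ± 0.119 CPM in mock (SD, n = 2 each). The fitted log2 fold change over mock was 4.34 (SE 0.58) for HSV and 4.30 (SE 0.58) for G3-YSD.

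Syt14 (ENSMUSG00000016200) lies on chromosome 1 at 192891233 to 193035775, on the minus strand. It was close to silent outside HSV and G3-YSD. It had 78 and 67 counts in HSV 1 and HSV 2 and 76 and 80 counts in G3-YSD 1 and G3-YSD 2, against 0 and 5 counts in mock 1 and mock 2. HT-DNA had 1 count in each library, cGAMP had 0 and 2, and both hpRNA libraries had 0. A count of 0 allows up to 3 counts, or 0.178 CPM in mock 1. The levels were 4.78 and 5.53 CPM in HSV, 4.49 and 6.15 CPM in G3-YSD and 0 and 0.305 CPM in mock. Of the 5 genes Syt14 had the widest gap between the 4 libraries and the other 8, at 14.7-fold, and the smallest spread within HSV and G3-YSD. It averaged 5.16 ± 0.531 CPM in HSV and 5.32 ± 1.18 CPM in G3-YSD, against 0.153 ± 0.216 CPM in mock (SD, n = 2 each). The fitted log2 fold change was 5.04 (SE 1.10) for HSV and 5.08 (SE 1.10) for G3-YSD; it rests on the 5 counts of mock 2 and is no bound.

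Adgrf3 (ENSMUSG00000067642) lies on chromosome 5 at 30193431 to 30205722, on the minus strand. It had 92 and 250 counts in HSV 1 and HSV 2 and 79 and 223 counts in G3-YSD 1 and G3-YSD 2, against 14 and 10 counts in mock 1 and mock 2. The levels were 5.64 and 20.6 CPM in HSV, 4.66 and 17.1 CPM in G3-YSD and 0.796 and 0.610 CPM in mock. Library 2 was again the higher one in HSV and in G3-YSD. Outside these groups hpRNA was the highest, with 1.37 and 1.06 CPM, above HT-DNA with 0.573 and 0.246 CPM and cGAMP with 0.216 and 0.454 CPM. The lowest HSV or G3-YSD library was 3.41-fold above hpRNA 1. Adgrf3 averaged 13.1 ± 10.6 CPM in HSV and 10.9 ± 8.83 CPM in G3-YSD, against 0.703 ± 0.131 CPM in mock (SD, n = 2 each). The fitted log2 fold change was 4.20 (SE 0.86) for HSV and 3.94 (SE 0.85) for G3-YSD.

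L3mbtl1 (ENSMUSG00000035576) lies on chromosome 2 at 162943472 to 162974522, on the plus strand. It had 55 and 190 counts in HSV 1 and HSV 2 and 49 and 200 counts in G3-YSD 1 and G3-YSD 2, against 4 and 17 counts in mock 1 and mock 2. The levels were 3.37 and 15.7 CPM in HSV, 2.89 and 15.4 CPM in G3-YSD and 0.227 and 1.04 CPM in mock. Mock 2 alone was over 1 CPM, so this gene met the limit only by its mock mean of 0.632 CPM. The other 3 groups ranged between 0.259 and 0.729 CPM. The lowest HSV or G3-YSD library was 2.79-fold above mock 2, the smallest gap of the 5 genes. L3mbtl1 averaged 9.53 ± 8.71 CPM in HSV and 9.14 ± 8.83 CPM in G3-YSD, against 0.632 ± 0.573 CPM in mock (SD, n = 2 each). The fitted log2 fold change was 3.90 (SE 1.07) for HSV and 3.84 (SE 1.07) for G3-YSD.

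Zfp811 (ENSMUSG00000055202) lies on chromosome 17 at 32795676 to 32809931, on the minus strand, inside a cluster of zinc-finger genes. It had 48 and 109 counts in HSV 1 and HSV 2 and 53 and 84 counts in G3-YSD 1 and G3-YSD 2, against 7 and 5 counts in mock 1 and mock 2. The levels were 2.94 and 9.00 CPM in HSV, 3.13 and 6.46 CPM in G3-YSD and 0.398 and 0.305 CPM in mock. The other 3 groups ranged between 0.171 and 0.433 CPM. The lowest HSV or G3-YSD library was 6.80-fold above the highest of the other 8. Zfp811 averaged 5.97 ± 4.28 CPM in HSV and 4.79 ± 2.35 CPM in G3-YSD, against 0.351 ± 0.0657 CPM in mock (SD, n = 2 each). The fitted log2 fold change was 4.05 (SE 0.66) for HSV and 3.74 (SE 0.65) for G3-YSD. The handling of reads that fit several similar zinc-finger genes is not stated in the labels, and the Zfp811 counts are uncertain to that extent.

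**Figure D1:**
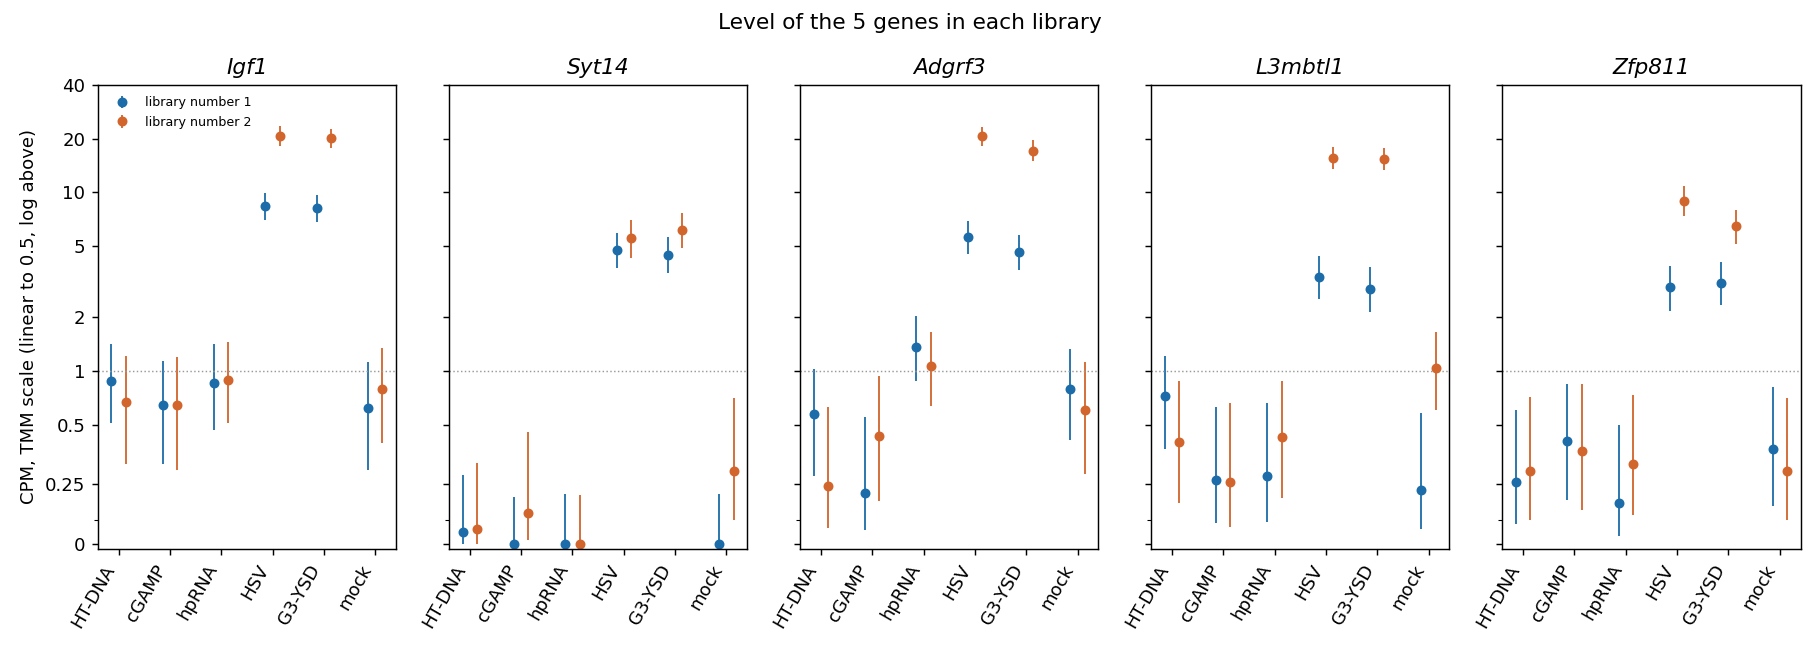
CPM on the TMM scale (vertical axis, linear to 0.5 and logarithmic above) of each gene in the 12 libraries, grouped by label, with 95% Poisson intervals that cover counting error only; blue points are library 1, orange points library 2, and the dotted line is 1 CPM. In each panel the 4 HSV and G3-YSD points lie above the other 8, and all but Syt14 show library 2 well above library 1.

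In all 5 genes the 4 HSV and G3-YSD libraries lay above all 8 others, as did 2158 (12.8%) of all genes tested. Both HSV libraries exceeded both mock libraries in 24.7% of genes tested, and both G3-YSD libraries did in 24.4%. Over all genes the edgeR quasi-likelihood test called 876 (5.20%) in HSV and 869 (5.16%) in G3-YSD: 291 (1.73%) higher and 585 (3.47%) lower in HSV, and 302 (1.79%) higher and 567 (3.37%) lower in G3-YSD. With upper quartile scaling in place of TMM the split was 347 higher and 304 lower in HSV and 364 higher and 314 lower in G3-YSD. Calls of the 5 genes themselves are not given, since they were selected on these contrasts. At the upper edge of the limit, Igf1 had the highest mock mean of the 5 genes, 0.709 CPM, and the genes just over the limit were Letm2, with mock 1.03 CPM, and Ttn, with mock 1.06 CPM. Letm2 stood at 4.85 CPM in HSV and 4.56 CPM in G3-YSD, and Ttn at 13.1 CPM in HSV and 12.6 CPM in G3-YSD.

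Leaving out library 2 lowered the log2 fold change of the uneven genes. Without HSV 2 it was 3.54 for Igf1, 2.98 for Adgrf3, 2.40 for L3mbtl1 and 3.03 for Zfp811. Without G3-YSD 2 it was 3.50, 2.70, 2.18 and 3.11 for the same genes. Syt14 instead followed mock, at 9.40 in HSV and 9.45 in G3-YSD without mock 2, where the remaining mock library had 0 counts, and at 4.04 in HSV and 4.08 in G3-YSD without mock 1. L3mbtl1 also depended on mock, and stood at 5.34 in HSV and 5.28 in G3-YSD without mock 2 and at 3.18 in HSV and 3.12 in G3-YSD without mock 1. To set the levels of the 5 genes against each other, CPM was divided by exon length. Per kb the mean level over the HSV and G3-YSD libraries was 3.66 CPM for Adgrf3, 2.23 CPM for L3mbtl1, 1.51 CPM for Zfp811, 1.45 CPM for Igf1 and 0.439 CPM for Syt14, so Zfp811 and Igf1 were close and Syt14 was the lowest.

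The libraries numbered 1 and 2 divided the genes. With even set as a ratio between 0.5 and 2 in both HSV and G3-YSD, Syt14 alone was even and the other 4 were uneven, each with more in library 2. L3mbtl1 was the most uneven, with library 2 over library 1 at 4.65-fold in HSV (95% counting interval 3.43 to 6.40) and 5.32-fold in G3-YSD (3.87 to 7.42). Adgrf3 followed with 3.66-fold in HSV (2.87 to 4.70) and 3.68-fold in G3-YSD (2.83 to 4.81). Igf1 had the same ratio in both, 2.47-fold. Zfp811 had 3.06-fold in HSV (2.16 to 4.39) and 2.06-fold in G3-YSD (1.45 to 2.97). The G3-YSD ratio of Zfp811 was 1.97 when CPM were taken from library totals, and by the limit of 2 Zfp811 was then no longer uneven in G3-YSD. Syt14 had 1.16-fold in HSV (0.822 to 1.62) and 1.37-fold in G3-YSD (0.989 to 1.90), and both intervals held 1. The intervals cover counting error only.

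Between the labels, libraries of the same number were much closer. The ratio of HSV to G3-YSD at the same number ran from 0.899 to 1.39 over the 5 genes, and 8 of 10 counting intervals held 1. The exceptions were in library 2, for Zfp811 at 1.39 (1.04 to 1.87) and for Adgrf3 at 1.20 (1.00 to 1.45). For the libraries of the same label 2 of 10 intervals held 1, those of Syt14. How many intervals hold 1 over all genes was not counted, so nothing particular to the 5 genes is read from these counts. The same order held over all genes, with r of 0.996 for HSV 1 and G3-YSD 1 and 0.995 for HSV 2 and G3-YSD 2. Within HSV r was 0.900 and within G3-YSD 0.901. L3mbtl1 was also uneven in mock, where library 2 was 4.56-fold above library 1 (1.49 to 18.6), on 17 and 4 counts. Ifit1 ran the other way in HSV and G3-YSD and the mitochondrial share ran the same way as these genes; their part in the imbalance was not tested.

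**Figure D2:**
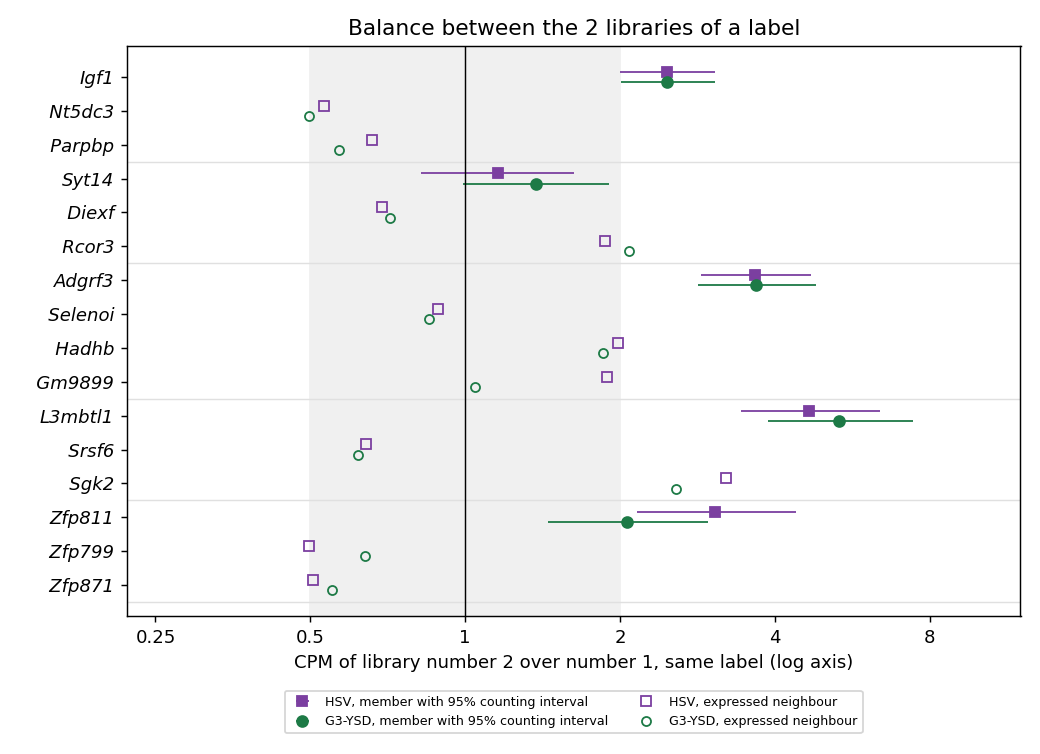
Ratio of CPM in library 2 to library 1 of the same label (logarithmic axis) for each gene, as filled symbols with 95% counting intervals, and for its nearest expressed neighbours, as open symbols; squares are HSV, circles G3-YSD, and the grey band spans 0.5 to 2. Adgrf3 and L3mbtl1 lie right of the band, Igf1 has intervals that reach its edge, Syt14 lies inside it, and only Sgk2 among the neighbours lies to the right of the band in both labels.

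Over all genes tested, 4161 had a mock mean under 1 CPM, and in 1481 of these all 4 HSV and G3-YSD libraries lay above both mock libraries. Of the 1481, 457 were even in both labels, 374 had more in library 2 by over 2-fold in both, 350 had more in library 1 in both and 300 differed in class between the labels. Syt14 was thus 1 of the 457, and Igf1, Adgrf3, L3mbtl1 and Zfp811 were among the 374. Of the 1481, 90 had a mean over the HSV and G3-YSD libraries at least that of Syt14, the lowest of the 5 genes. Among these 90, 7 were even in both labels. By over 2-fold in both labels, 28 had more in library 2 and 50 had more in library 1.

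Between HSV and G3-YSD no gene of the 16840 was called (0.00%), with 33 at an unadjusted p under 0.05 and 1 called by DESeq2. The log2 fold change of HSV over G3-YSD was 0.04 (SE 0.49) for Igf1, -0.04 (SE 0.85) for Syt14, 0.27 (SE 0.73) for Adgrf3, 0.06 (SE 0.92) for L3mbtl1 and 0.32 (SE 0.56) for Zfp811. These are descriptions with no test of the 5 genes, since the selection used both labels. The 2 libraries of each label differ widely, and these values do not show that the labels act alike.

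Igf1, Adgrf3 and L3mbtl1 were tested in HT-DNA and cGAMP against hpRNA, none of whose libraries the selection used. Zfp811 and Syt14 passed the filter only through HSV and G3-YSD and were not tested there. No gene was called in either comparison (0.00% of 16840 in each). For HT-DNA 77 genes were under an unadjusted p of 0.05 and DESeq2 called 1, and for cGAMP 59 were under it and DESeq2 called 2. Adgrf3 had the largest difference of the members tested. It averaged 0.409 ± 0.231 CPM in HT-DNA and 0.335 ± 0.168 CPM in cGAMP, against 1.22 ± 0.216 CPM in hpRNA (SD, n = 2 each). All 4 HT-DNA and cGAMP libraries lay under both hpRNA libraries. The share of all genes that separate this way was not counted, so nothing is read from that order. The log2 fold change was -1.54 (SE 0.85, edgeR adjusted p = 1.00) for HT-DNA and -1.86 (SE 0.88, edgeR adjusted p = 1.00) for cGAMP, so neither passed. In a fit chosen after seeing the data, without the HSV and G3-YSD libraries, the edgeR adjusted p was 0.958 for HT-DNA and 0.936 for cGAMP. Over all alternatives tried it ran from 0.446 to 1.00 for HT-DNA and from 0.317 to 1.00 for cGAMP.

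The other genes differed by less than their errors there. Igf1 differed from hpRNA by -0.16 (SE 0.56) in HT-DNA and -0.43 (SE 0.57) in cGAMP on the log2 scale. L3mbtl1 differed by 0.66 (SE 1.10) in HT-DNA and -0.46 (SE 1.19) in cGAMP. For Igf1 and L3mbtl1 the edgeR adjusted p was 1.00 in HT-DNA and in cGAMP. Zfp811 differed by 0.15 (SE 0.71) in HT-DNA and 0.68 (SE 0.69) in cGAMP, given as a description with no test. Zfp811 and Syt14 passed the filter on low counts only through HSV and G3-YSD and are absent from a fit without those labels. L3mbtl1 stayed in that fit and was absent when only the 2 labels compared were fitted, so its values and those of Zfp811 here rest on genes admitted by libraries outside the comparison. No fold is given for Syt14, which had at most 2 counts in any of these libraries. The errors come from 1 fit of all 12 libraries, so they also draw on the spread within the uneven HSV and G3-YSD pairs. In that fit, at 3 to 24 counts per library for the other genes, a change of the size of these errors was not detectable.

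The neighbourhood of each gene was read from the GENCODE M21 annotation, taking as expressed a gene with a mean of at least 5 CPM over the mock, HT-DNA, cGAMP and hpRNA libraries. Igf1 stood the most alone. The nearest expressed gene on its 5′ side was Nt5dc3 on the same strand, 1020 kb away, and on its 3′ side Parpbp, an inhibitor of homologous recombination, on the opposite strand, 154 kb away. None of the 3 other genes listed within 100 kb of Igf1 passed the filter. At a limit of 1 CPM the 5′ neighbour became Stab2, a scavenger receptor, on the opposite strand and 850 kb away. Stab2 stood at 14.9 CPM in HSV and 15.0 CPM in G3-YSD, against 1.64 CPM in mock, and was uneven the opposite way, with library 2 over library 1 at 0.219 in HSV and 0.181 in G3-YSD. The edgeR test did not call it (adjusted p = 0.104 for HSV and 0.103 for G3-YSD).

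Upstream of Syt14, on the same strand, lay Diexf, which acts in ribosome assembly in the nucleolus. The gap was 55.3 kb. Diexf stood at 30.5 CPM in HSV and 29.0 CPM in G3-YSD, against 42.3 CPM in mock, and was not called. On the 3′ side the nearest expressed gene was Rcor3, a corepressor subunit, 753 kb away.

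Adgrf3 had no expressed gene on its own strand within 368 kb on the 5′ side, where Gm9899 lies. On the opposite strand, however, Hadhb, the beta subunit of the mitochondrial trifunctional protein, lay 8.84 kb from its 3′ end, and Selenoi, an enzyme of phosphatidylethanolamine synthesis, 26.9 kb from its 5′ end. Hadhb stood at 84.9 and 169 CPM in HSV 1 and HSV 2 and 92.0 and 171 CPM in G3-YSD 1 and G3-YSD 2, against 124 and 113 CPM in mock 1 and mock 2. Library 2 was thus the higher one for Hadhb as it was for Adgrf3, at 1.98-fold in HSV and 1.85-fold in G3-YSD, but the Hadhb libraries straddled mock. Drc1, a component of motile cilia 75.7 kb away, was named after its values were seen. It had 0.307 and 5.86 CPM in HSV 1 and HSV 2 and 0.177 and 5.92 CPM in G3-YSD 1 and G3-YSD 2, against 0 and 0.183 CPM in mock 1 and mock 2, and was not called (edgeR adjusted p = 0.186 for HSV and 0.189 for G3-YSD).

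L3mbtl1 had an expressed gene close upstream on its own strand. Srsf6, a splicing factor, ended 6.35 kb before it. Srsf6 stood at 265 CPM in HSV and 280 CPM in G3-YSD, against 340 CPM in mock, with library 2 over library 1 at 0.641 in HSV and 0.618 in G3-YSD. Its means lay under mock through library 2, at 207 CPM in HSV 2 and 214 CPM in G3-YSD 2. HSV 1 and G3-YSD 1, at 323 and 346 CPM, were close to mock 1 and mock 2, at 324 and 356 CPM. Between libraries Srsf6 thus ran opposite to L3mbtl1, and it was not called. On the 3′ side Sgk2, a kinase, began 12.8 kb away on the same strand. Sgk2 had 6.19 and 19.9 CPM in HSV 1 and HSV 2 and 7.32 and 18.8 CPM in G3-YSD 1 and G3-YSD 2, against 8.01 and 5.92 CPM in mock 1 and mock 2, so library 2 was high and library 1 was not. It was not called (edgeR adjusted p = 0.376 for HSV and 0.374 for G3-YSD).

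Zfp811 was flanked by zinc-finger genes on its own strand. Zfp799 ended 5.52 kb before it and Zfp871 began 7.39 kb after it. Zfp799 stood at 9.69 CPM in HSV and 9.48 CPM in G3-YSD, against 8.41 CPM in mock, and Zfp871 at 56.5 CPM in HSV and 54.2 CPM in G3-YSD, against 72.6 CPM in mock. Both had less in library 2 than in library 1, the reverse of Zfp811, at 0.498 in HSV and 0.638 in G3-YSD for Zfp799 and 0.507 in HSV and 0.551 in G3-YSD for Zfp871. The edgeR test called no gene within 100 kb of any of the 5 genes in HSV or G3-YSD, with 3 at an unadjusted p under 0.05 in HSV and 2 in G3-YSD, and DESeq2 called 1, Selenoi, lower in each. Those tested numbered 0 for Igf1, 1 for Syt14, 5 for Adgrf3, 5 for L3mbtl1 and 4 for Zfp811. Over all 16840 genes tested, 4092 in HSV and 4072 in G3-YSD were under that unadjusted p. DESeq2 called 2272 and 2208 of all genes.

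Genes that overlap the 5 on the annotation added few counts. Igf1os, antisense to Igf1, had at most 4 counts in any library, and the small RNA genes inside Syt14 and Zfp811 had at most 5. No label states whether counting used strand, and reads of Igf1os and Igf1 cannot be told apart without it. Among the 1480 low genes of the same pattern with a position, 277 overlapped an expressed gene and 240 had a same-strand expressed gene ending within 10 kb on the 5′ side. Of the 5 genes, L3mbtl1 and Zfp811 had such a gene.

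**Figure D3:**
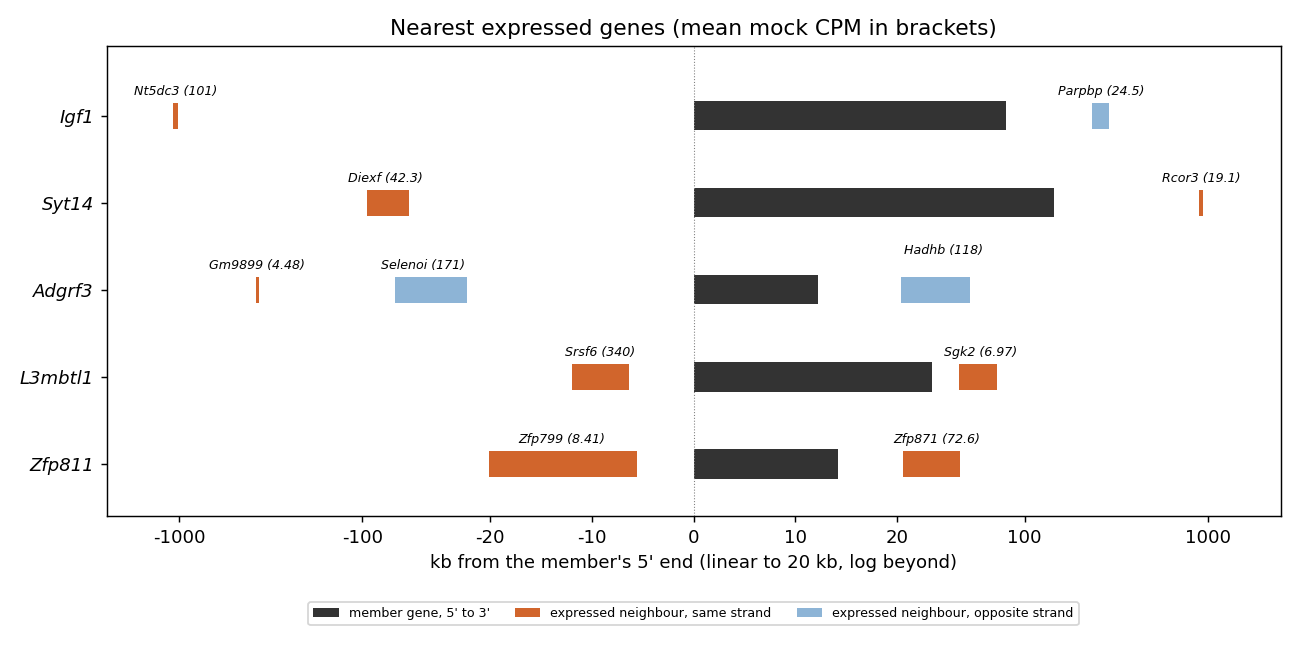
Position of the nearest expressed genes around each of the 5 genes, in kb from the gene's 5′ end in its own direction (linear to 20 kb, logarithmic beyond); black bars are the 5 genes, orange bars neighbours of the same strand and blue bars those of the opposite strand, each with its mean CPM in mock. Srsf6 and Zfp799 are the neighbours under 10 kb upstream, and Igf1 has none within 100 kb on either side.

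The families and pathways of the 5 genes were counted with the genes themselves left out. Of the insulin-like growth factor axis, 12 of 23 genes passed the filter, and edgeR called none in HSV or G3-YSD, with 1 at an unadjusted p under 0.05 in each. DESeq2 also called none, and without the filter on low counts edgeR called 1 higher in each. Over all 16840 genes tested, 4092 in HSV and 4072 in G3-YSD were under that unadjusted p. DESeq2 called 2272 and 2208 of all genes. The list's median log2 fold change was 0.08 in HSV and 0.10 in G3-YSD, against 0.10 and 0.11 over all genes. The receptor for clearance of Igf2, Igf2r, stood at 366 CPM in HSV and 364 CPM in G3-YSD, against 373 CPM in mock. The binding proteins Igfbp4 and Igfbp6 stood at 347 and 379 CPM in HSV and 350 and 392 CPM in G3-YSD, against 304 and 313 CPM in mock. Ghr, the growth hormone receptor, was named after its values were seen. It had 88.9 and 6.61 CPM in HSV 1 and HSV 2 and 88.0 and 7.46 CPM in G3-YSD 1 and G3-YSD 2, against 8.13 and 10.1 CPM in mock 1 and mock 2. It was high in the libraries where Igf1 was the lower, and was not called (edgeR adjusted p = 0.261 for HSV and 0.263 for G3-YSD).

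Of the synaptotagmin family, 15 of 27 genes passed the filter and edgeR called 2 higher in each label, where it called 1.73% of all genes tested higher in HSV and 1.79% in G3-YSD. Syt11, which acts in membrane trafficking, stood at 6.78 CPM in HSV and 7.14 CPM in G3-YSD, against 0.855 CPM in mock, with a log2 fold change of 2.98 (SE 0.57, edgeR adjusted p = 0.0266) in HSV and 3.05 (SE 0.57, edgeR adjusted p = 0.0262) in G3-YSD. Sytl3, a synaptotagmin-like effector of Rab27, stood at 3.14 CPM in HSV and 2.37 CPM in G3-YSD, against 0.439 CPM in mock, with a log2 fold change of 2.82 (SE 0.44, edgeR adjusted p = 0.0168) in HSV and 2.41 (SE 0.43, edgeR adjusted p = 0.0245) in G3-YSD. Syt11 had more in library 1, with 10.2 and 3.39 CPM in HSV 1 and HSV 2 and 9.51 and 4.77 CPM in G3-YSD 1 and G3-YSD 2. DESeq2 called 3 of the 15 in HSV and 4 in G3-YSD, adding Syt8, lower, in each and Syt2, higher, in G3-YSD. Over all 16840 genes tested it called 2272 and 2208. The family's median log2 fold change was 0.16 in HSV and 0.44 in G3-YSD.

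Of the adhesion G protein-coupled receptors, 14 of 29 passed the filter and edgeR called 1 higher in each label, set against the same shares over all genes. This was Adgrf5, a receptor of the same subfamily as Adgrf3 that limits surfactant in lung. It had 6.38 and 9.33 CPM in HSV 1 and HSV 2 and 6.08 and 11.3 CPM in G3-YSD 1 and G3-YSD 2, against 0.625 and 0.732 CPM in mock 1 and mock 2. The log2 fold change was 3.52 (SE 0.50, edgeR adjusted p = 0.0153) in HSV and 3.66 (SE 0.50, edgeR adjusted p = 0.0131) in G3-YSD. DESeq2 called 3 of the 14 higher in HSV and 2 in G3-YSD, adding Adgrv1 in each and Adgrd1 in HSV. Over all 16840 genes tested it called 2272 and 2208. The family's median was 0.76 in HSV and 0.82 in G3-YSD.

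Of the MBT domain family, 5 of 9 genes passed the filter and edgeR called 1 lower, where 3.47% of all genes were lower in HSV and 3.37% in G3-YSD, in the direction opposite to L3mbtl1. Scmh1, a polycomb group protein, fell to 10.4 CPM in HSV and 11.4 CPM in G3-YSD, against 26.6 CPM in mock, with a log2 fold change of -1.35 (SE 0.26, edgeR adjusted p = 0.0269) in HSV and -1.21 (SE 0.26, edgeR adjusted p = 0.0365) in G3-YSD. Scml4, named after its values were seen, followed L3mbtl1 between libraries. It had 0.490 and 24.8 CPM in HSV 1 and HSV 2 and 1.06 and 21.5 CPM in G3-YSD 1 and G3-YSD 2, against 0.114 and 0.610 CPM in mock 1 and mock 2, and was not called (edgeR adjusted p = 0.173 for HSV and 0.185 for G3-YSD). DESeq2 called Scml4 higher, in the direction of L3mbtl1, and Scmh1 lower in each label. Over all 16840 genes tested it called 2272 in HSV and 2208 in G3-YSD. The family's median was -0.23 in HSV and -0.21 in G3-YSD.

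The corepressors that KRAB zinc-finger proteins use were all expressed, and edgeR called 0 of 6, with 2 at an unadjusted p under 0.05 in HSV and 3 in G3-YSD. DESeq2 called 2 of the 6 lower in each label, Setdb1 and Cbx5, and edgeR with the replicate block called 1 lower in each. Over all 16840 genes tested, 4092 in HSV and 4072 in G3-YSD were under that unadjusted p. In either direction DESeq2 called 2272 and 2208 of all genes, and the replicate block 1214 and 1211. Trim28 stood at 313 CPM in HSV and 330 CPM in G3-YSD, against 312 CPM in mock, and Cbx3 at 208 CPM in HSV and 199 CPM in G3-YSD, against 288 CPM in mock. Cbx5, a heterochromatin protein, had the largest difference, with a log2 fold change of -0.93 (edgeR adjusted p = 0.0802) in HSV and -0.95 (edgeR adjusted p = 0.0779) in G3-YSD. The list's median was -0.28 in HSV and -0.32 in G3-YSD. All 13 Zfp genes that start within 1000 kb of Zfp811 passed the filter. Zfp763 was called higher in both labels, with 27.4 CPM in HSV and 25.6 CPM in G3-YSD, against 10.2 CPM in mock, and a log2 fold change of 1.42 (SE 0.20, edgeR adjusted p = 0.0151) in HSV and 1.32 (SE 0.20, edgeR adjusted p = 0.0155) in G3-YSD. Zfp952 was called in G3-YSD, at 0.86 (SE 0.18, edgeR adjusted p = 0.0366), and not in HSV, at 0.74 (SE 0.18, edgeR adjusted p = 0.0578); the difference between the labels was not called. DESeq2 called both Zfp763 and Zfp952 higher in each label. The median of these 13 was 0.21 in HSV and 0.24 in G3-YSD.

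The lists together gave 5 edgeR calls among 65 genes tested in HSV (7.69%) and 6 in G3-YSD (9.23%), against 5.20% and 5.16% of all genes tested, and nothing is read from shares this close on so few calls. Of the 65 genes, 8 passed the filter only through HSV and G3-YSD, and edgeR called none of the 8. The lists gave no edgeR call in HSV against G3-YSD or in HT-DNA or cGAMP against hpRNA. HSV and G3-YSD share the mock libraries, so their calls are not independent. None of the list calls was made in a fit without mock 1, without mock 2 or with the libraries of the 2 labels alone. In HSV 3 calls were made without HSV 1 and 1 without HSV 2, and in G3-YSD 3 were made without G3-YSD 1 and 0 without G3-YSD 2. Other settings gave more calls: DESeq2 made 12 in each label, 8 higher and 4 lower, edgeR without the filter made 12 in HSV and 13 in G3-YSD, the replicate block 7 in each and the crossed block, chosen after seeing the data, 8 in each. Over all genes these settings also called more. DESeq2 called 2272 in HSV and 2208 in G3-YSD, and edgeR without the filter 1892 and 1894. The replicate block called 1214 and 1211, and the crossed block 1935 and 1878. The DESeq2 list calls included Adgrv1 in each label and Syt2 in G3-YSD, which passed the filter only through HSV and G3-YSD. Their highest levels in the other 8 libraries were 0.416 CPM for Adgrv1 and 0.519 CPM for Syt2. Such genes were tested only because HSV and G3-YSD were high, so nothing is read from those calls.

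**Figure D4:**
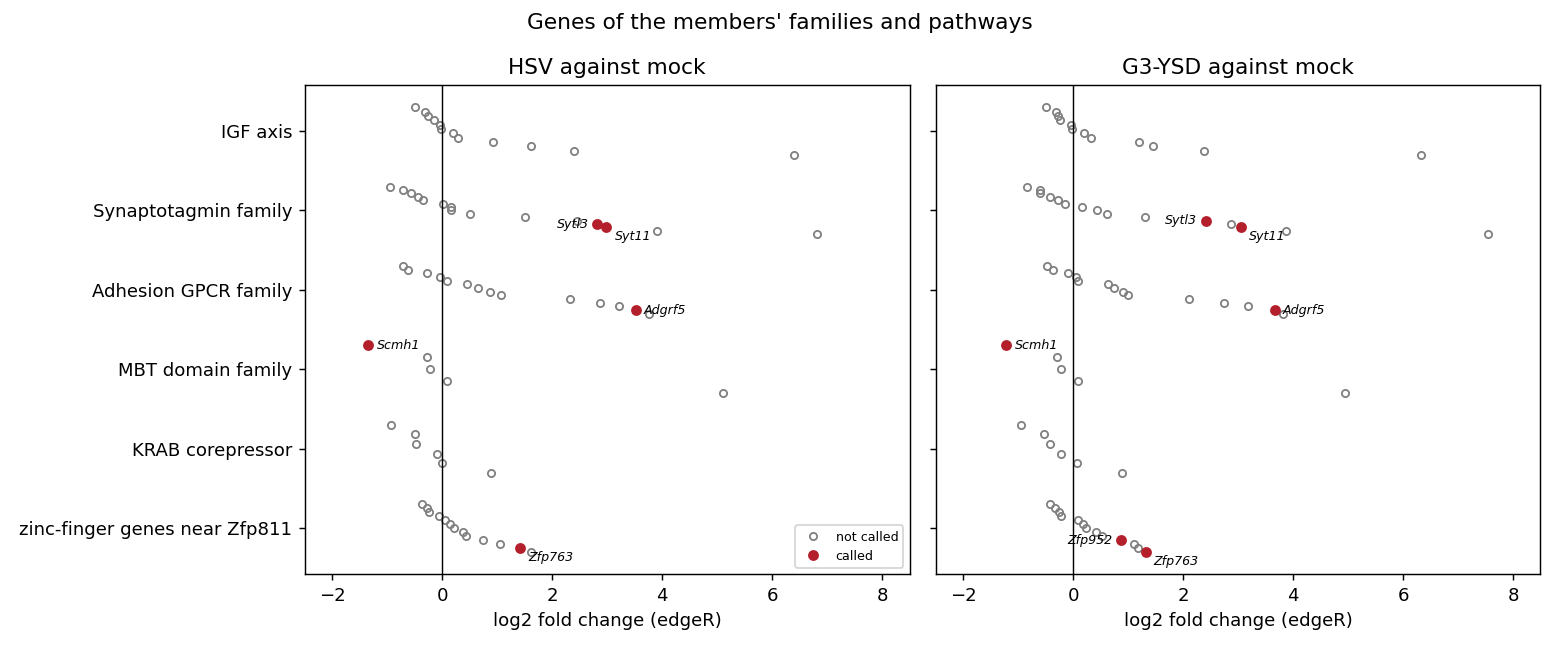
Log2 fold change over mock (horizontal axis) of each gene tested in the 6 lists, HSV in the left panel and G3-YSD in the right; filled red points were called by edgeR at an adjusted p under 0.05 and open points were not, and the 5 selected genes are left out. Of the 65 genes, 32 lie within 0.5 of 0 in each panel, with 39 above 0 and 26 below it. Syt11, Sytl3, Adgrf5 and Zfp763 were called higher in both panels, and Scmh1 was called lower in both.

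Markers of other cell types that might carry such genes were summed in every library. Endothelial markers were higher in the same libraries as the 5 genes, with a sum of 6.00 to 11.8 CPM over 4 markers in the HSV and G3-YSD libraries and 0.549 to 1.11 CPM in the other 8. Kdr was high in library 1, with 8.15 CPM in HSV 1 and 10.5 CPM in G3-YSD 1, while Pecam1 and Tek were higher in library 2, and Cdh5, a defining endothelial marker, had at most 3 counts in every library. The sum of 5 epithelial markers was 1.47 to 4.54 CPM in the HSV and G3-YSD libraries and 0.244 to 0.682 CPM in the other 8, with Krt18 and Krt5 at no more than 3 counts in every library. The sum of 7 neuronal markers, of interest for Syt14, was 1.35 to 2.46 CPM in HSV and G3-YSD and 1.29 to 1.69 CPM in the other 8, with Snap25, Rbfox3, Map2 and Stmn2 at no more than 3 counts. The sum of 8 macrophage markers, of interest for Igf1, was 82.3 to 103 CPM in HSV and G3-YSD and 89.9 to 108 CPM in the other 8. Cd68, at 57.5 to 74.0 CPM in HSV and G3-YSD and 69.7 to 91.3 CPM in the other 8, sets most of that sum. Fcgr1, an Fc receptor, was higher in all 4 libraries, at 3.80 to 5.31 CPM in HSV and G3-YSD and 0.112 to 1.30 CPM in the other 8. Csf1r, the receptor of a macrophage growth factor, had 2.48 CPM in HSV 2 and 2.23 CPM in G3-YSD 2, against 0.307 to 1.04 CPM in the other 8 libraries, with 0.981 CPM in HSV 1 and 1.42 CPM in G3-YSD 1. Of the remaining macrophage markers, Lyz2 was also higher in all 4 libraries, by a smaller factor than Fcgr1. Ptprc, Cd14, Itgam and Mrc1 were not, and their levels in HSV and G3-YSD overlapped those in the other 8. The part of the endothelial, epithelial and macrophage markers in the levels of the 5 genes was not tested. In bulk RNA, fewer cells with the transcript and less of it per cell cannot be told apart.

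The genes most like each of the 5 were ranked by Pearson correlation of log2(CPM + 0.5) over the 12 libraries, as a description, since the libraries share labels and depth. For Igf1 these were Nsd1, a histone methyltransferase, Arrdc3, an arrestin-related protein, and the transcription factor Klf6, each at r = 0.996. Arrdc3 had the imbalance of Igf1, with library 2 over library 1 at 3.02 in HSV and 2.86 in G3-YSD. For Syt14 they were the chromatin reader Phf20l1 (r = 0.994), the matrix gene Emilin3 (0.992) and Gnat2, a transducin subunit of cones (0.991). Gnat2 and Phf20l1 were as even as Syt14, with ratios between 0.936 and 1.06.

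For Adgrf3 the closest genes were the proteasome subunit Psmd8 (r = 0.985), Tmem176b (0.985) and the mitochondrial gene Ghitm (0.984). For L3mbtl1 they were Gp5, a platelet glycoprotein (0.991), the coatomer subunit Copa (0.991) and Spef2, a gene of sperm flagella (0.989). For Zfp811 they were Pcf11, a factor of transcript 3′ end cleavage (0.995), the transcription factor Runx1 (0.993) and Klf6 (0.992). Copa ranged from 481 to 619 CPM in HSV and G3-YSD, against 380 to 411 CPM in the other 8 libraries. Among the 5 genes themselves r ran from 0.926, for Adgrf3 and Syt14, to 0.987, for Igf1 and Zfp811, over 10 pairs. All 5 were selected as low in mock and higher in HSV and G3-YSD. That selection by itself makes r high, so no link between the genes is read from these values.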

How the data were processed

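The authors deposited raw read counts per Ensembl gene, 1 table for each of 12 libraries; HISAT2, HTSeq and mm10 are named, without versions, per the submitters' processing notes. No label, note or header names the annotation release or the strand setting. Of 54532 genes listed, 54409 matched GENCODE M21, which gave names, positions and exon lengths. Library totals were 12650790 to 18912400 counts; intervals and floors (3 counts) cover counting error only.

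Counts were fitted in R 4.3.3 with edgeR 4.0.16, by filterByExpr, TMM scaling and the quasi-likelihood test, in 1 fit of all 12 libraries with a term per label. Calls are Benjamini-Hochberg adjusted p under 0.05 over 16840 genes. The scripts were tested on simulated data. Alternatives were DESeq2 1.42.0, upper quartile scaling, no filter, a replicate block, the 2 labels alone and each library left out. Counting intervals at 95% are exact.

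The members and gene lists were chosen with earlier results of these data known. Named are the 5 genes, every called gene of a list and otherwise its most abundant ones, the nearest expressed genes on either side, and the 3 genes most correlated with each member. Exceptions are marked where they occur. A promoter window and a marker list are not reported here.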

Additional observations from a re-analysis of the deposited data

How the results depend on the processing

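The counts of genes called were 876 (291 higher, 585 lower) in HSV against mock and 869 (302 higher, 567 lower) in G3-YSD against mock, and they changed with the processing. Without the filter on low counts they were 1892 in HSV and 1894 in G3-YSD, and with DESeq2 2272 in HSV and 2208 in G3-YSD. Upper quartile scaling gave 347 higher and 304 lower in HSV and 364 higher and 314 lower in G3-YSD, and shifted the median over all genes tested, on the log2 scale, by 0.15 in HSV and 0.14 in G3-YSD; no list median changed sign under it. With the 2 labels alone both counts were 0. Leaving out 1 library gave 0 to 682 in HSV and 0 to 652 in G3-YSD; both were 0 without mock 1 or without mock 2, HSV was at 130 without HSV 2 and G3-YSD at 77 without G3-YSD 2. The replicate block gave 1214 in HSV and 1211 in G3-YSD. The numbers may not pair the libraries. For each gene tested, the difference between libraries 1 and 2 was taken within each label and correlated between labels over genes. This correlation was -0.310 for HSV and mock and -0.312 for G3-YSD and mock. It was 0.290 and 0.295 for HT-DNA and cGAMP with hpRNA, and 0.919 for HSV and G3-YSD. A crossed replicate block, chosen after seeing the data, gave 1935 in HSV and 1878 in G3-YSD. Counts of 0 became 1 in HSV against G3-YSD with DESeq2 or without the filter, and with DESeq2 1 in HT-DNA and 2 in cGAMP against hpRNA. Without the HSV and G3-YSD labels and with the replicate block, chosen after seeing the data, 25 genes were called in HT-DNA and 39 in cGAMP. The cause of these changes was not tested, beyond the fewer libraries or more genes that an alternative itself entails.

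Of 100 fold changes of the 5 genes against mock under alternatives, none reversed and 14 moved by more than the spread between libraries of a label, with values of 2.18 to 9.45 on the log2 scale. Of 125 in the other comparisons 12 reversed, all with 1 library left out. For HSV against G3-YSD the range then was -0.75 to 0.84 for Igf1, -0.25 to 0.20 for Syt14, -0.95 to 1.50 for Adgrf3, -1.44 to 1.72 for L3mbtl1 and -0.70 to 0.93 for Zfp811. For HT-DNA against hpRNA it was -0.36 to 0.011 for Igf1 and -0.24 to 0.71 for Zfp811. Of the 100 genes most like a member by Pearson correlation, the Spearman ranking shared 7 for Igf1, 11 for Syt14, 29 for Adgrf3, 28 for L3mbtl1 and 9 for Zfp811. Counts of 0 to 24 per library outside HSV and G3-YSD limit every value of the 5 genes there.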
